A study of Medicago sativa with 24 samples.

Results

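The genes described here are 15 sequences of mobile DNA, namely the reverse transcriptase, non-LTR, gag, integrase, polyprotein and transposase genes among the 1019 genes that the study listed as differing in transcription between parents and hybrids or between ploidy levels. They were taken by their annotation in that list (the words retro, transcriptase, integrase, polyprotein or transposase), out of 41527 genes measured on the array. Because every gene of the list had been selected on a contrast of the parents, the diploid (2x) hybrids and the tetraploid (4x) hybrids, these 3 contrasts are given below as a description: how many members met the same call rule in them is counted, but no p-value is given and nothing is drawn from the counts. The pairs of single genotypes, which the selection did not use as contrasts, were tested.

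Transcription was measured in leaves of 8 genotypes of Medicago sativa (alfalfa), with 3 biological replicates each and 24 arrays in all. The diploid seed parent PG-F9 belongs to subsp. falcata and the diploid pollen parent 12P descends from coerulea and falcata, and both are meiotic mutants that form unreduced as well as reduced gametes. Their cross gave full-sib hybrids, of which S8-2x, S16-2x and S24-2x were diploid (2x) and, from unreduced eggs and pollen, S29-4x, S48-4x and S60-4x tetraploid (4x), so that each hybrid is 1 plant genotype kept as cuttings. A replicate was a pool of leaves from 2 cuttings, and p-values between genotypes therefore measure the spread between cuttings of 1 plant and say nothing of other plants of the same ploidy.

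Retrotransposons multiply through an RNA copy, which reverse transcriptase turns back into DNA. In the elements with long terminal repeats (LTRs), such as Ty1/copia, the gag protein packages that RNA and an integrase inserts the new DNA copy, while the non-LTR elements lack these repeats and insert by another route. DNA transposons are instead cut out and moved by a transposase. Plants hold most of these elements silent through DNA methylation and chromatin marks, and hybridization and polyploidy are classical settings in which their silencing has been studied.

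The 15 members comprised 6 reverse transcriptase genes, 3 non-LTR reverse transcriptase genes, 3 gag genes, an integrase and a Ty1/copia polyprotein gene (2 genes), and 1 transposase gene. Their probes were designed on the related species M. truncatula, and 12 of the 15 carried NP identifiers placed on 12 different sequenced clones. Such elements exist in many similar copies, so a probe set may read several copies at once and a level cannot be assigned to 1 locus. Levels were not compared between genes for the same reason. How well the probes match the alleles of each parent was not tested, so a difference in intensity between genotypes need not be one of transcript level.

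Values are log2 intensities, normalized over all arrays by the authors, so they are relative to the other transcripts of the leaf and not amounts per cell or per genome copy. In whole leaves, fewer cells of a type and less RNA per cell cannot be told apart. Median intensities lay between 499.3 and 527.7 (linear scale), and 66.0% to 79.1% of the genes on an array exceeded the highest of its 11 negative controls, which is used here as the background. That background was 6.32 (log2) on average and highest in PG-F9 (6.87). Of 24 arrays, 23 were most alike to another replicate of their own genotype, the exception being S24-2x replicate 1. Of 8 leaf markers (chlorophyll a/b binding proteins, a Rubisco small subunit and a photosystem I subunit), 6 exceeded background on all arrays. The other 2, the chlorophyll a/b binding protein gene TC183902 and the Rubisco small subunit gene TC198142, did so on 15 of 24 arrays.

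All 15 members exceeded background on at least 1 array, and 7 did so on all 24. For 6 members, all 3 arrays of at least 1 genotype were at background. Where that holds, the fold is given as "at least": the mean of the brighter genotype over a mean in which each array of the dimmer genotype counts with its background or its own value, whichever is higher.

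**Figure D1:**
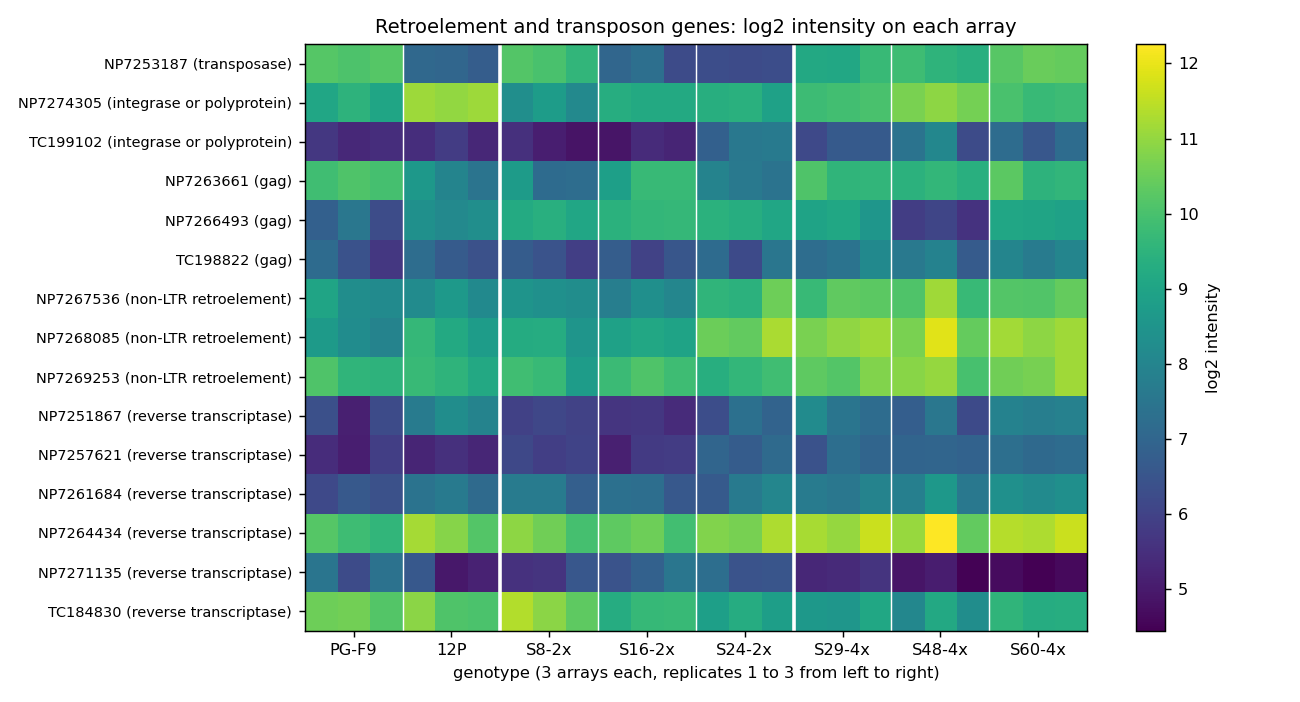
Log2 intensity (colour scale) of the 15 members (rows, by annotation class) on the 24 arrays (columns, 3 per genotype; thick white lines part the parents, the 2x hybrids and the 4x hybrids). The transposase NP7253187 ran from 6.23 to 10.48, and the gag gene NP7266493 was dark in S48-4x (5.58 to 6.06) and in 1 array of PG-F9 (6.27).

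The transposase gene NP7253187 had the widest range of genotype means (4.11) and fell into a high and a low class of genotypes. Its values were 10.21, 10.08 and 10.21 in PG-F9 against 7.07, 7.02 and 6.76 in 12P. Among the 2x hybrids they were 10.17, 10.02 and 9.58 in S8-2x, 7.03, 7.29 and 6.24 in S16-2x, and 6.29, 6.23 and 6.29 in S24-2x. Among the 4x hybrids they were 9.15, 9.14 and 9.71 in S29-4x, 9.82, 9.53 and 9.38 in S48-4x, and 10.23, 10.48 and 10.42 in S60-4x. S8-2x and all 4x hybrids were thus near the seed parent, whereas the means of S16-2x (6.85) and S24-2x (6.27) were below that of the pollen parent (6.95), with no overlap between the classes. S16-2x and S24-2x exceeded background on 2 of 3 arrays each (mean background 6.36 and 6.07), so their order below 12P is uncertain.

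The parents differed 9.27-fold at this gene (PG-F9 minus 12P 3.21, SE 0.14, adjusted p = 2.36e-05, limma, 3 against 3 arrays). S8-2x exceeded S16-2x 8.42-fold (3.07, SE 0.29, adjusted p = 0.00215, limma) and S24-2x 12.6-fold (3.66, SE 0.17, adjusted p = 9.37e-05, limma). These 3 differences passed the test under every alternative tried. The folds over S16-2x and S24-2x rest on values near background and are approximate. Within the 4x hybrids, S60-4x was 2.06-fold above S29-4x (1.04, SE 0.18, adjusted p = 0.0313, limma), a call that was lost without S29-4x replicate 1 or 2 or without any single replicate of S60-4x (adjusted p between 0.0836 and 0.132).

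The listed genes whose values over the 24 arrays were most like the transposase were the BED zinc finger gene NP7271842 (Pearson r = 0.98) and the HAT dimerisation gene NP7273710 (r = 0.96). Zinc fingers of the BED type and the HAT dimerisation region are both known from transposases of the hAT superfamily of DNA transposons. In NP7273710 the genotype means were 9.66 in PG-F9, 6.02 in 12P, 9.65 in S8-2x, 6.08 in S16-2x and 6.48 in S24-2x, and 8.84, 9.67 and 9.88 in S29-4x, S48-4x and S60-4x, the same division of the genotypes into high and low. Over all genes of the array, 21 exceeded r = 0.9 with the transposase. Since arrays of a genotype share their plant, these correlations describe the 8 genotypes more than 24 independent points.

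NP7253186, which lies on the same sequenced M. truncatula clone as the transposase, followed it as well. Its genotype means were 8.53 ± 0.22 in PG-F9 and 5.85 ± 0.31 in 12P, 8.07 ± 0.16 in S8-2x, 6.03 ± 0.56 in S16-2x and 5.50 ± 0.36 in S24-2x, and 7.52 ± 0.07, 7.98 ± 0.22 and 8.82 ± 0.13 in S29-4x, S48-4x and S60-4x (SD, n = 3). On all arrays of 12P and of S24-2x it was at background. PG-F9 was at least 4.73-fold above 12P (adjusted p = 0.000207, limma), S8-2x at least 4.01-fold above S24-2x (adjusted p = 0.000908, limma) and S60-4x 2.46-fold above S29-4x (adjusted p = 0.00323, limma).

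**Figure D2:**
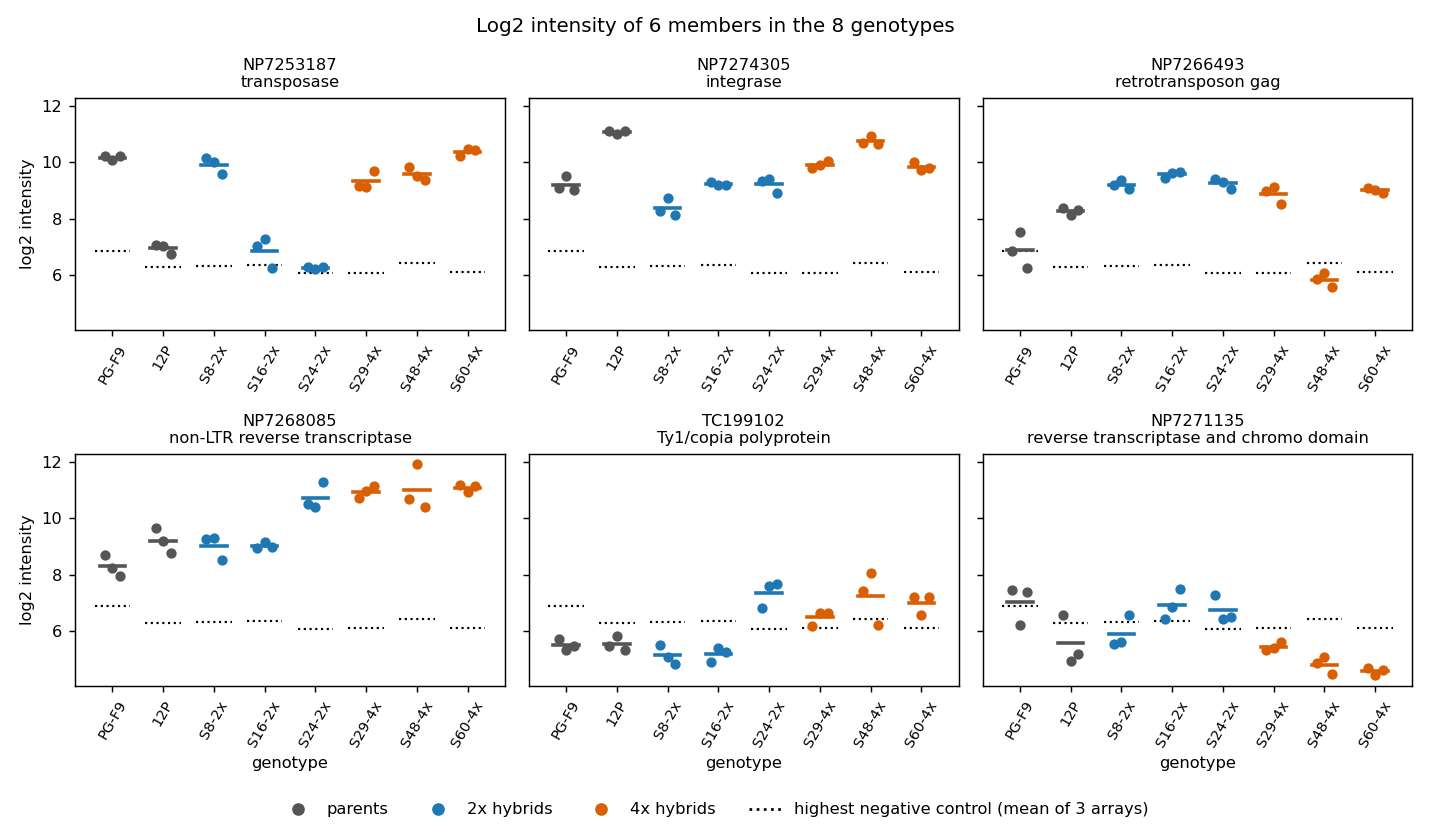
Log2 intensity of 6 members on each array (points) by genotype, with the genotype mean (bar) and the mean highest negative control of its 3 arrays (dotted). The transposase parts PG-F9, S8-2x and the 4x hybrids (9.14 to 10.48) from 12P, S16-2x and S24-2x (6.23 to 7.29), and NP7271135 lies under the dotted line in every 4x array.

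The integrase gene NP7274305, annotated with an integrase catalytic region, a CCHC zinc finger and an aspartic peptidase as in LTR retrotransposons, was higher in the pollen parent. Its values were 9.08, 9.50 and 9.03 in PG-F9 and 11.10, 10.99 and 11.12 in 12P, a 3.65-fold difference (12P minus PG-F9 1.87, SE 0.16, adjusted p = 0.000406, limma). The 2x hybrids lay at 8.39 ± 0.32 (S8-2x), 9.23 ± 0.06 (S16-2x) and 9.23 ± 0.26 (S24-2x), at or below the lower parent. The 4x hybrids lay between the parents, at 9.91 ± 0.11 (S29-4x), 10.76 ± 0.16 (S48-4x) and 9.85 ± 0.15 (S60-4x), and no 4x array was as low as the highest 2x array (9.72 against 9.41). No pair of 2x or of 4x hybrids was called at this gene.

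The Ty1/copia polyprotein gene TC199102 is named for a partial (3%) similarity to an Arabidopsis element, so its label rests on a small match. TC199102 was at background on all arrays of both parents, S8-2x and S16-2x (4.84 to 5.83). It was above background on all arrays of S24-2x (6.83, 7.58 and 7.66), S29-4x (6.18, 6.64 and 6.64) and S60-4x (7.20, 6.56 and 7.19) and on 2 of 3 in S48-4x (7.42, 8.06 and 6.23). The 12 arrays of the first set of genotypes and the 12 of the second did not overlap. The sets are also the first and the second 12 sample records, and here genotype and record order cannot be told apart. S24-2x was at least 2.04-fold above S8-2x (adjusted p = 0.00613, limma) and at least 2.00-fold above S16-2x (adjusted p = 0.0303, limma).

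The 3 gag genes behaved differently from each other. In NP7266493 the 4x hybrid S48-4x stood apart from its full sibs, with 5.87, 6.06 and 5.58, all at background, against 8.99, 9.11 and 8.54 in S29-4x and 9.08, 9.02 and 8.93 in S60-4x. S29-4x was at least 5.51-fold above S48-4x (adjusted p = 0.00121, limma) and S60-4x at least 6.02-fold (adjusted p = 0.000273, limma). Both differences were called under all alternatives tried. Among the parents, 12P gave 8.38, 8.13 and 8.30, all above S48-4x, and PG-F9 gave 6.85, 7.53 and 6.27, around its own background, so that S48-4x and PG-F9 cannot be ordered.

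12P exceeded PG-F9 2.62-fold at this gag gene (1.39, SE 0.30, adjusted p = 0.0166, limma), a call that was lost without PG-F9 replicate 1 (adjusted p = 0.0503) or 12P replicate 3 (adjusted p = 0.0506). The 2x hybrids were all above both parents, with 9.06 as the lowest, 9.37 as the median and 9.66 as the highest of 9 arrays. The listed genes most like it over the arrays were TC201763, without an annotation, and NP7271657, a hypothetical protein (r = 0.88 each). Their means in S48-4x were 7.30 and 7.09, against 9.88 and 10.54 in S29-4x and 10.10 and 10.63 in S60-4x, while in PG-F9 they were 7.46 and 6.89.

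The gag gene NP7263661 was higher in PG-F9 (9.85, 10.12 and 9.96) than in 12P (8.61, 7.98 and 7.46), by 3.89-fold (1.96, SE 0.28, adjusted p = 0.00321, limma). Among the 2x hybrids, S16-2x gave 8.86, 9.72 and 9.71, S24-2x gave 7.95, 7.59 and 7.42, and S8-2x spread widely at 8.72, 7.16 and 7.24. S16-2x was 3.43-fold above S24-2x (1.78, SE 0.27, adjusted p = 0.0467, limma). That call was lost without S16-2x replicate 2 or 3 or S24-2x replicate 2 or 3 (adjusted p between 0.124 and 0.179). The 9 arrays of 4x hybrids ran from 9.37 to 10.30 with a median of 9.59, near PG-F9.

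The gag gene TC198822 lay close to background in the parents (5.71 to 7.23) and the 2x hybrids (5.89 to 7.52) and somewhat above it in the 4x hybrids (6.70 to 8.14). The ranges of all 3 groups overlapped, and no pair of single genotypes was called.

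The 3 non-LTR reverse transcriptase genes were above background on all arrays and highest in 4x hybrids, and for NP7267536 and NP7268085 the 2x hybrid S24-2x lay nearer to the 4x hybrids than to its diploid sibs. NP7268085 gave 8.69, 8.25 and 7.94 in PG-F9, 9.65, 9.20 and 8.75 in 12P, 9.25, 9.29 and 8.53 in S8-2x and 8.93, 9.14 and 8.99 in S16-2x. In S24-2x it gave 10.49, 10.38 and 11.28, within the range of the 9 arrays of 4x hybrids but for its lowest array (lowest 10.40, median 10.95, highest 11.91). The values of S24-2x and of the 4x hybrids did not overlap those of the parents and the other 2x hybrids.

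S24-2x exceeded S8-2x at NP7268085 by 3.24-fold (1.69, SE 0.31, adjusted p = 0.0231, limma) and S16-2x by 3.24-fold (1.70, SE 0.25, adjusted p = 0.0427, limma). At NP7267536 the values were 9.55, 9.48 and 10.52 in S24-2x and 8.49, 8.38 and 8.28 in S8-2x, a 2.76-fold difference (1.46, SE 0.28, adjusted p = 0.028, limma). Both calls against S8-2x were lost without any 1 replicate of S8-2x (adjusted p between 0.0594 and 0.0995), and that of NP7268085 also without S24-2x replicate 3 (adjusted p = 0.0521).

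The call of NP7268085 against S16-2x was lost without any 1 replicate of S16-2x or without S24-2x replicate 2 or 3 (adjusted p between 0.0522 and 0.175). In the same pair, the Ty1/copia gene TC199102 lost its call without S16-2x replicate 2 or 3 or S24-2x replicate 2 or 3 (adjusted p between 0.103 and 0.149), whereas its call against S8-2x was never lost.

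The non-LTR gene NP7269253 differed from these: S24-2x (9.34, 9.62 and 9.85) lay with the other diploids, whose values ran from 8.77 to 10.10, and the 4x hybrids ran from 9.99 to 11.16. No pair of single genotypes was called.

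The genes with a reverse transcriptase annotation did not share a pattern. NP7251867 was at background in PG-F9 (6.35, 5.12 and 6.23), S8-2x and S16-2x and above it in 12P (7.70, 8.27 and 7.93). 12P was at least 2.14-fold above PG-F9 (adjusted p = 0.0056, limma). S24-2x (6.28, 7.32 and 6.92) and S48-4x (6.78, 7.53 and 6.21) were above background on 2 arrays each, and S29-4x and S60-4x on all (7.21 to 8.20). NP7261684 was likewise at background in PG-F9 (6.18, 6.62 and 6.37) and above it in 12P (7.42, 7.65 and 7.15), at least 1.45-fold (adjusted p = 0.00847, limma). Its fitted difference, 1.02, was just past the threshold of 1 and fell under it without PG-F9 replicate 1 (0.91) or 12P replicate 2 (0.89).

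NP7257621, related to a retrotransposon reverse transcriptase of beet, was at background on all 12 arrays of the parents, S8-2x and S16-2x (5.10 to 6.13). It was above background on all arrays of S24-2x (6.98, 6.71 and 7.15) and of the 4x hybrids (6.41 to 7.30), although by little. S24-2x was at least 1.53-fold above S8-2x, and this pair was not called. NP7264434 was above background throughout, and its ranges overlapped between the parents (9.58 to 11.22), the 2x hybrids (9.89 to 11.31) and the 4x hybrids (10.39 to 12.26). None of its pairs of genotypes was called.

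NP7271135, whose annotation joins a reverse transcriptase with a chromo domain (a module that binds marked histones), was low in the 4x hybrids. It was at background on all 9 arrays of the 4x hybrids (4.44 to 5.61). In the 2x hybrids it was above background on 7 of 9 arrays (5.55 to 7.50) and in the parents on 3 of 6 (4.94 to 7.47). Because of the background, the 2x hybrids can only be said to exceed the 4x hybrids at least 1.25-fold. The replicates were scattered, with 6.58, 4.94 and 5.20 in 12P, and no pair of genotypes was called.

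TC184830 carries a mixed annotation (an ATPase subunit, a reverse transcriptase and a disease resistance protein), so its transcript may not be a retroelement. It was the other member that was lower in the 4x hybrids (8.05 to 9.56) than in the parents (10.06 to 10.90), without overlap. S8-2x (11.35, 10.90 and 10.33) was 2.47-fold above S16-2x (9.28, 9.67 and 9.72; 1.31, SE 0.27, adjusted p = 0.0431, limma) and 3.67-fold above S24-2x (8.85, 9.29 and 8.81; 1.87, SE 0.27, adjusted p = 0.0111, limma). The first of these calls was lost without S8-2x replicate 1 or 2 or without any 1 replicate of S16-2x (adjusted p between 0.0705 and 0.142), and the second without S8-2x replicate 2 (adjusted p = 0.0543).

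Counted over the members, the parents differed most often. Of 15 members, 6 were called between PG-F9 and 12P, 2 higher in PG-F9 and 4 in 12P, where 11.1% of all genes and 35.6% of the other 1004 listed genes were called. The call required an adjusted p under 0.05 (Benjamini-Hochberg over all genes) together with an absolute log2 difference over 1. Of all genes, 5.29% were called higher in PG-F9 and 5.78% in 12P. The share of members (40.0%) was therefore near that of the rest of the list. Leaf markers differed between the parents too (5 of 8 called, 4 of them higher in 12P), and their part in the members' differences was not tested.

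Between the 2x hybrids, 2 members were called for S8-2x against S16-2x (2.51% of all genes, 9.26% of the other listed genes). For S8-2x against S24-2x 5 were called (3.42% and 13.0%), and for S16-2x against S24-2x 3 were called (0.864% and 7.77%). S8-2x and S16-2x are among the first 12 sample records and S24-2x among the second 12. Between the 4x hybrids, 1 member was called in each pair, where the shares were 3.16% and 7.17% for S29-4x against S48-4x, 1.54% and 7.77% for S29-4x against S60-4x, and 3.24% and 10.8% for S48-4x against S60-4x. In all, 10 members were called in at least 1 of the 7 pairs (66.7%, against 56.9% of the other listed genes and 15.9% of all genes) and 5 in none (NP7257621, NP7264434, NP7269253, NP7271135 and TC198822), with 19 calls of 105. A call missed does not show that the genotypes were alike, since each pair rests on 3 arrays against 3.

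**Figure D3:**
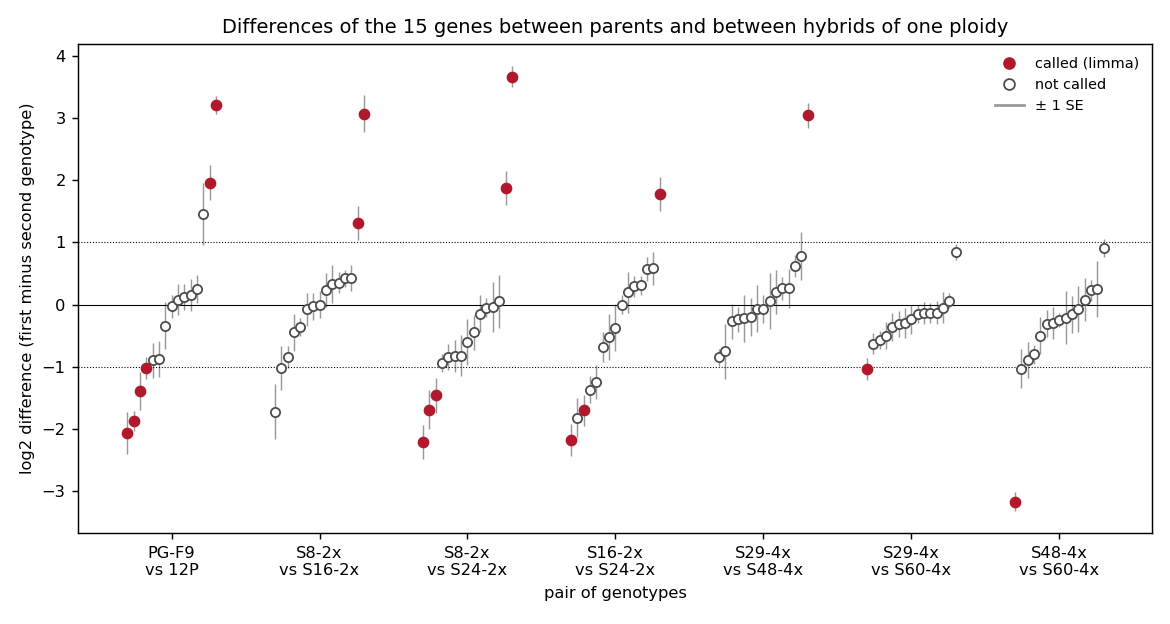
Log2 difference (first minus second genotype, vertical axis) of each of the 15 members in the 7 pairs of genotypes (horizontal axis), with bars of 1 SE, red where called and white where not. The widest called positive difference is that of the transposase in S8-2x against S24-2x (3.66) and the widest called negative one that of the gag gene NP7266493 in S48-4x against S60-4x (-3.17).

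**Figure D4:**
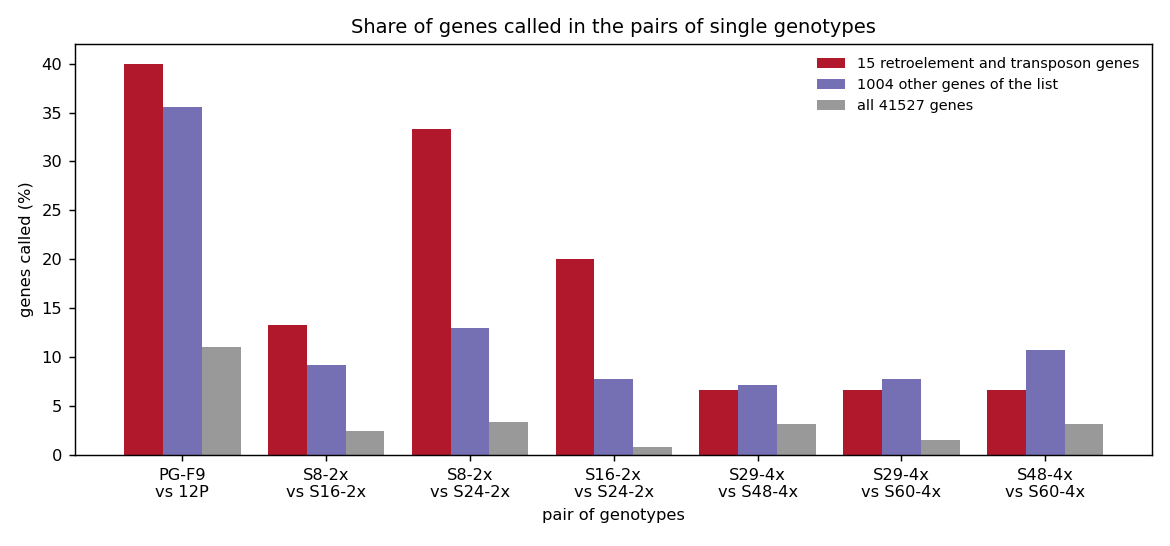
Share of genes called (percent, from 0) in each pair of genotypes among the 15 members, the other 1004 listed genes and all 41527 genes. The members' share is 40.0% between the parents and 6.67% in each pair of 4x hybrids, and with 15 members each gene is worth 6.67%.

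For 12 of 15 members the genotype means were spread more widely among the 2x than among the 4x hybrids, the exceptions being NP7266493 (0.36 against 3.17), NP7261684 (0.37 against 0.57) and NP7274305 (0.84 against 0.91). The median over members of the range of genotype means was 0.90 for PG-F9 and 12P, 1.25 for 2x hybrids and 0.57 for 4x hybrids (log2). It was 0.74, 0.87 and 0.62 for the other listed genes and 0.30, 0.39 and 0.32 for all genes. The list was selected by differences between groups weighed against the spread within them, so these ranges were not independent of the selection.

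As a description of the contrasts that chose the genes, 1 member met the call rule (adjusted p and log2 difference) between parents and 2x hybrids (0.183% of all genes did, 0.0554% in the direction higher in 2x hybrids), 10 between parents and 4x hybrids (1.36%) and 8 between 2x and 4x hybrids (1.47%). All 15 met it in at least 1 of them. The fit behind these counts took the arrays as independent, although arrays of a genotype share 1 plant. Its adjusted p therefore takes no account of the genotypes within a group. The single member called between parents and 2x hybrids was the gag gene NP7266493, 1.77 higher in the 2x hybrids. Between parents and 4x hybrids, 8 members (0.766% of all genes) were higher in the 4x hybrids, from NP7264434 (1.02), NP7269253 (1.03) and TC198822 (1.04), the nearest to the log2 threshold, up to NP7268085 (2.25). The 2 members NP7271135 and TC184830 (0.597% of all genes) were higher in the parents. For TC184830 the difference was 1.52. For NP7271135, at background in the 4x hybrids, only at least 1.07-fold can be given.

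Between 2x and 4x hybrids, 7 members (0.824% of all genes) were higher in the 4x hybrids, from TC198822 (1.05) to the transposase (2.08), and NP7271135 (0.648% of all genes in that direction) was higher in the 2x hybrids (at least 1.25-fold, as above). Outside the rule, NP7269253 missed the log2 threshold with 0.97, while TC199102 (1.01 higher in the 4x hybrids) and NP7266493 (1.44 higher in the 2x hybrids) were past it and missed on the adjusted p. The mean of the 4x hybrids was above that of the 2x hybrids for 12 of 15 members, with a median difference of 1.01 (0.45 for the other listed genes, of which 56.9% were higher, and -0.01 for all genes, of which 48.7% were higher). Against the parents it was above for 13 of 15, with a median of 1.03 (0.28 and 52.8% for the other listed genes, -0.02 and 47.6% for all genes). The 8 leaf markers came from genes that the study had picked from these samples as higher in the 4x than in the 2x hybrids. That all 8 were higher here (by 1.06 to 2.17) was therefore fixed by their choice. Their part in the members' differences was not tested. The parents, S8-2x and S16-2x make up the first 12 sample records, and S24-2x and the 4x hybrids the second 12. For every member, the difference between parents and 4x hybrids therefore cannot be told apart from record order. Of the 2x hybrids, only S24-2x shares the records of the 4x hybrids.

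The 2x hybrids were not alike in this respect. Against S24-2x alone, the 4x hybrids were higher for 11 of 15 members with a median difference of 0.41 (0.11 and 54.5% for the other listed genes, -0.01 and 48.5% for all genes). Without S24-2x among the 2x hybrids, 12 of 15 were higher with a median of 1.22. The difference of the transposase was 3.49 against S24-2x and 1.37 against the mean of S8-2x and S16-2x. The difference of the non-LTR gene NP7268085 was 0.28 against S24-2x and 1.98 against the others.

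For NP7257621, NP7267536, NP7268085 and TC199102, all arrays of S24-2x and the 4x hybrids lay above all arrays of the parents, S8-2x and S16-2x. Such a separation held for 0.486% of all genes (202 of 41527), with another 0.217% in the opposite direction. The same division follows the order of the sample records, in which the parents, S8-2x and S16-2x make up the first 12 and S24-2x and the 4x hybrids the second 12. Whether that order reflects separate handling of the arrays is not given in the sources used here, and for these 4 genes genotype and record order cannot be told apart. Within the second 12 records, the 4x hybrids minus S24-2x gave 0.06 for NP7257621, 0.37 for NP7267536, 0.28 for NP7268085 and -0.46 for TC199102.

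Relative to the parental means, both parents were exceeded for 3 members each in S8-2x and S16-2x, for 8 in S24-2x, and for 9, 8 and 10 in S29-4x, S48-4x and S60-4x. Among the other listed genes the shares were likewise larger in S24-2x and the 4x hybrids (25.9%, 24.7%, 37.5%, 40.7%, 44.3% and 41.7%, in the order S8-2x to S60-4x), so this was no feature of the members alone. Over all genes these shares were 24.4%, 25.7% and 29.1% in the 2x hybrids, in the order S8-2x, S16-2x, S24-2x, and 27.2%, 31.5% and 27.2% in the 4x hybrids. The counts below both parents were 5, 5 and 3 among 2x hybrids and 2, 3 and 2 among 4x hybrids, where the shares over all genes were 28.6%, 30.4%, 32.1%, 32.8%, 32.3% and 32.5% in the same order. For the other listed genes these shares were 35.6%, 38.0%, 35.9%, 39.2%, 40.1% and 36.8%. The counts order means even where the genotypes compared were at background. So NP7257621 counted above both parents in S8-2x and S16-2x, and TC199102 below both, although all these genotypes were at background. NP7251867 counted below both parents in S16-2x and NP7266493 in S48-4x, although PG-F9 was at or around background there. Such cases cannot be ordered. Since contrasts with the parents were part of the selection, these counts describe the members and are no test. S24-2x and the 4x hybrids also lie apart from the parents in record order, and for these hybrids placement and record order cannot be told apart.

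Listed genes with related annotations, outside the rule of the members, gave further contrasts between the parents, where 5.29% of all genes were called higher in PG-F9. The Copia protein gene NP7268223, the CCHC zinc finger and aspartic peptidase gene TC172909 (domains of LTR retrotransposon polyproteins) and the BED zinc finger gene NP7271842 were all called higher in PG-F9, by 7.63-fold, 11.8-fold and 11.3-fold (adjusted p = 3.61e-05, 0.000276 and 3.64e-05, limma). The hybrids resembled different parents at each. NP7268223 was high in S16-2x (10.66 ± 0.09) and S24-2x (10.47 ± 0.08) and lower in S8-2x (8.46 ± 0.06; 4.61-fold and 4.02-fold, adjusted p = 0.00027 and 0.000198, limma), the reverse order of the transposase and of NP7271842.

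NP7271842 was 11.4-fold higher in S8-2x than in S16-2x and 13.4-fold higher than in S24-2x (adjusted p = 0.000248 and 5.14e-05, limma). It was also 2.21-fold higher in S60-4x than in S29-4x (adjusted p = 0.0355, limma). TC172909 was at 10.18 or more in every 4x array and at 7.94 or less in every 2x array.

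All 5 helicase-like genes of the list were called higher in 12P than in PG-F9. Of all genes, 5.78% were called in that direction, and 35.6% of the listed genes other than the members were called in either direction. Helicases unwind nucleic acids, and genes of this kind occur within some DNA transposons. For TC190291 and NP7257220, at background on all arrays of PG-F9, the difference was at least 7.06-fold and at least 7.65-fold (adjusted p = 0.000368 and 0.000222, limma). It was 8.21-fold for NP7256031, 10.5-fold for NP7262446 and 13.0-fold for TC194459 (adjusted p = 9.56e-05, 0.000192 and 0.000316, limma), the last of which was above background on 1 of 3 arrays of PG-F9. In the 4x hybrids their means lay between 8.66 and 10.29 and in the 2x hybrids between 6.72 and 8.86.

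Of the 3 listed genes of DNA methylation and chromatin, the cytosine-specific methyltransferase gene TC176960, of the enzyme class that methylates DNA, was 4.38-fold higher in PG-F9 than in 12P (2.13, SE 0.26, adjusted p = 0.00182, limma). Its arrays ran from 11.66 to 11.97 in PG-F9, 9.30 to 10.31 in 12P, 8.35 to 9.56 in the 2x hybrids and 10.99 to 11.73 in the 4x hybrids. Diploid and tetraploid hybrids were apart without overlap at this gene, a contrast that its selection for the list had used. The histone H3.2 gene TC181956 was 2.16-fold higher in S60-4x than in S48-4x (adjusted p = 0.0165, limma). The SET domain gene TC197527, of the class of histone methyltransferases, was 2.33-fold higher in S48-4x (adjusted p = 0.00246, limma).

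NP7271130 and NP7271141 share a sequenced clone with the chromo domain member NP7271135 but were not low in the 4x hybrids. Their means were 8.43 to 8.83 and 9.27 to 9.79 in the 4x hybrids, 8.44 and 9.74 in S24-2x, and 7.13 to 7.43 and 8.46 to 8.74 in the parents, S8-2x and S16-2x. NP7271130, a hypothetical protein, was also the listed gene most like the non-LTR gene NP7268085 (r = 0.97), followed by the hypothetical protein NP7262770 (r = 0.96). Over all genes of the array, 88 exceeded r = 0.9 with NP7268085, so this pattern was not confined to the members. The annotations of these genes were not counted.

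**Figure D5:**
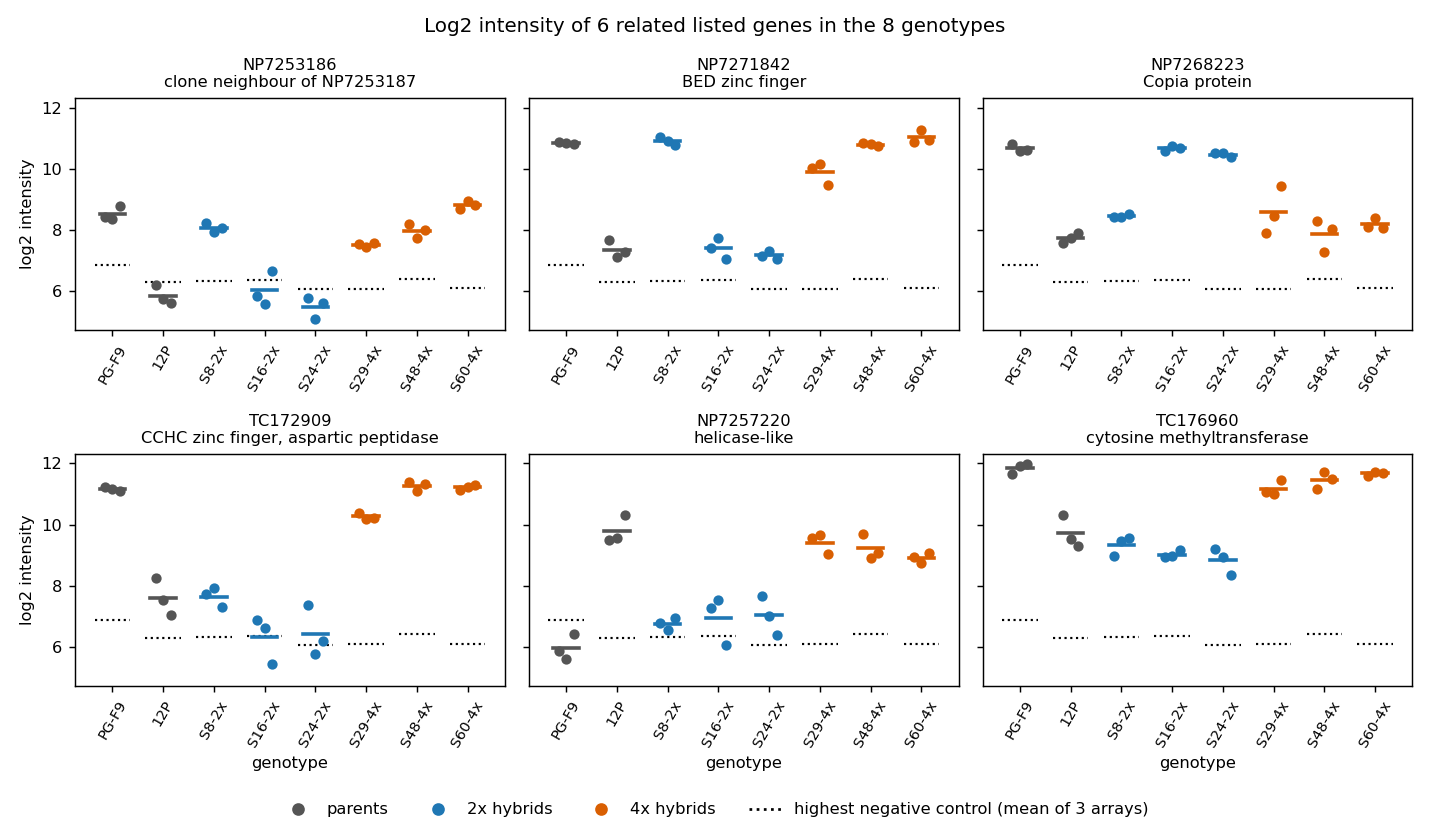
Log2 intensity on each array (points) of 6 listed genes outside the rule by genotype, with genotype means (bars) and the mean highest negative control (dotted). NP7253186 and NP7271842 repeat the genotype classes of the transposase, NP7268223 is high in PG-F9, S16-2x and S24-2x, and the methyltransferase TC176960 is high in PG-F9 and the 4x hybrids (10.99 to 11.97).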

How the data were processed

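Total RNA of leaves was labelled with Cy3 and hybridized to 1-colour NimbleGen arrays. The authors made the deposited intensity values by quantile normalization of the scans and RMA summarization to 1 value per gene, on the linear scale. The 11 negative controls were left out of the tests, and log2 was taken of the intensities of 41527 genes. Samples were grouped by genotype from their labels. Pairs of genotypes (3 arrays against 3) were fitted by lmFit and eBayes of limma 3.58.1, under R 4.3.3, with Benjamini-Hochberg adjustment over all genes, an adjusted p threshold of 0.05 and a log2 threshold of 1. The fit was tested on simulated data. Other values and plots used Python 3.11.15, numpy 2.4.6, pandas 2.3.3 and matplotlib 3.10.9.

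Of the study's list, the annotations alone were used, not its fold changes or p-values. The genes named are all 15 members, the genes of the related lists called in at least 1 pair, and for the 3 members with the widest range of genotype means the 2 most correlated listed genes. Means of NP7271130 and NP7271141 were named after their values had been seen. The members and lists were chosen with earlier results of these data known. Alternatives covered normalization, filters, a floor, the variance model, the replicate block, a fit of all arrays, no fold threshold and leaving out each array. The number of arrays limits the precision.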

Additional observations from a re-analysis of the deposited data

Results flagged for a closer look

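Dixon's test was applied to 45 sets of 6 or 9 arrays, each member in the parents, the 2x hybrids and the 4x hybrids, and flagged 2 of them. The usual rate of about 1 in 20 by chance holds for homogeneous samples, whereas these sets pool genotypes and share arrays. For the reverse transcriptase gene NP7257621, S29-4x replicate 1 was the lowest of the 9 arrays of 4x hybrids at 6.41, with the nearest at 6.89. For the non-LTR gene NP7267536, S48-4x replicate 2 was the highest of the 9 arrays at 11.16, with the nearest at 10.41. The same array was also the highest of the 4x hybrids for NP7261684 (8.61), NP7264434 (12.26), NP7268085 (11.91), NP7274305 (10.94) and TC199102 (8.06).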

How the results depend on the processing

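None of the 19 single calls of members changed direction under any alternative. The filters, the variance model, the replicate block, the fit of all arrays and no fold threshold left the log2 differences unchanged. Under these, direction could not change. Recomputed with all arrays kept, the calls were lost in 13 of 168 cases, and with 1 array left out in 35 of 114. The 168 include the fits without a fold threshold, which could not lose a call. Leaving out 1 array moved the counts of called members to between 5 and 7 for PG-F9 against 12P (6 with all arrays), 1 and 2 for S8-2x against S16-2x (2), 2 and 6 for S8-2x against S24-2x (5) and 0 and 5 for S16-2x against S24-2x (3, with 8 at an unadjusted p under 0.05). For the 4x pairs it moved them to between 1 and 1 for S29-4x against S48-4x (1), 0 and 1 for S29-4x against S60-4x (1, with 4 at an unadjusted p under 0.05) and 1 and 3 for S48-4x against S60-4x (1). A floor at the 5th percentile left 1 call for S8-2x against S16-2x, 0 for S16-2x against S24-2x and 0 for S29-4x against S60-4x. For S16-2x against S24-2x, the count was 5 with only genes above background on 3 arrays, 6 with a trended robust variance and 6 with all 24 arrays in 1 fit. Without the log2 threshold, 2, 2 and 3 members were called in the 4x pairs S29-4x against S48-4x, S29-4x against S60-4x and S48-4x against S60-4x. The cause of these shifts was not tested. Leaving out the genes of lowest mean intensity kept 10 of the 15 members.

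Replicate numbers did not pair the samples. After the genotype mean of each gene was subtracted, the correlations of same-numbered replicates were between -0.32 and 0.26. In 0 of 7 pairs were all of them above 0.1. With the replicate number as a block, 3 members were called for S8-2x against S24-2x and 0 for S16-2x against S24-2x, and 6 of the 19 calls were lost.

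The median difference of the 4x and 2x hybrids (1.01) was between 0.9 and 1.17 without 1 array and, in comparisons chosen after seeing the data, 0.41 with S24-2x as the only 2x hybrid, 1.22 without S24-2x and 0.93 without S48-4x. The number of cases in which a hybrid exceeded both parents (41 of 90, 45.6%) was between 38 and 44 without 1 array, and without S24-2x it was 33 of the remaining 75 (44.0%). Signal near background limited 6 members.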
